A study of Mus musculus with 30 samples.

Results

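The solute carriers (SLC) of mouse brain microvessels were examined outside the handful of carriers that are usually taken to mark the blood-brain barrier. Members were all genes with a symbol made of Slc and a number whose brightest probe set averaged above 6 (log2) over all 30 arrays, except 10 core barrier carriers that were left out by name. The array held 347 such symbols among 18194 named genes, 172 of them were above the level, and 163 remained after 9 bright core carriers were removed. They covered 44 Slc families. Since members were chosen by their mean level on these same arrays, the levels are given as a description: Slc22a15 (6.12), Slc25a42 (6.15) and Slc37a2 (6.18) lay just inside the limit, and Slc16a11 (5.97), Slc41a2 (5.94) and Slc26a11 (5.89) lay just outside it. All 163 members passed the filter on low values used for testing. For 4 symbols the match is by letters only and the product is no carrier; they are counted with the members: Slc9a3r1 and Slc9a3r2 (scaffold proteins of transporters), Slc4a1ap and Slc7a6os.

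The arrays measured RNA of brain microvascular fragments, small vessel pieces that hold endothelium with the cells attached to it, after amplification of about 100 ng RNA. PDGF-B is the endothelial growth factor that recruits pericytes, the mural cells of capillaries, and 2 mouse models lowered its action. In the ret model, pdgfbret/ret mutants (7 to 10 months old, 4 arrays) were compared with pdgfbret/+ controls (8 to 10 months, 4 arrays), all C57/B6/J; the ret allele lacks the motif that retains PDGF-B at the cell surface, the controls carry 1 copy of it, and no region is named. In the R26P model, mutants labelled Tie2Cre, R26P+/0, pdgfb-/- were compared with controls labelled R26P+/0, pdgfb+/+, both on a mixed C57/SV129 background, with 4 arrays of cerebrum and 4 of cerebellum in each genotype. R26P is known as a conditional PDGF-B transgene in the Rosa26 locus, which Tie2Cre switches on in endothelium, so both R26P groups carry the transgene and the mutants alone carry the Cre. The R26P animals are given as 1 year old in the sample titles and as 2 months old in the sample characteristics. Wild-type mice (Notch3+/+, C57/B6/J, 2 months) gave 3 arrays of each region. Arrays of a group are labelled as biological replicates, with no word on animals or pools. Both regions of an R26P genotype share replicate numbers, and arrays of the same number deviated together.

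SLC proteins move amino acids, sugars, vitamins, metals, ions, nucleotides and metabolites across membranes, mostly by exchange or by cotransport with sodium, protons or bicarbonate. At the blood-brain barrier they decide which polar molecules pass the endothelium. Astrocyte endfeet, mural cells and the choroid plexus have carriers of their own, and the Slc25 and Slc35 families work mostly inside the cell, in the mitochondrial inner membrane and the Golgi or endoplasmic reticulum.

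All values are the authors' deposited log2 GCRMA levels, and a difference of 1 is a 2-fold difference. Probe brightness depends on the probe, so no gene's level is set against another's. The 24 arrays of the 2 models shared 1 lowest value and had array medians of 2.49 to 2.6, while the 6 wild-type arrays had medians of 3.02 to 3.03 and had been normalized apart, so wild type is compared only with itself. Pdgfb fell from 12.66 ± 0.17 to 5.98 ± 1.58 (SD, n = 4) in the R26P mutant cerebrum and from 12.35 ± 0.20 to 5.53 ± 1.32 in the cerebellum. In the ret groups it was 11.85 ± 0.19 and 12.17 ± 0.34, which checks nothing since the ret allele is still transcribed. Of 9 pericyte markers, 9 were lower in each mutant comparison, with marker means of 11.29 to 11.76 on the ret control arrays and 7.16 to 8.30 on the ret mutant arrays. Of 9 astrocyte markers tested, 6 were lower in ret mutants and 7 in each R26P region. None of 10 endothelial markers was lower. In ret, R26P cerebrum and R26P cerebellum 0, 1 and 3 of them were higher (median changes 0.12, 0.17 and 0.21). Of 7 smooth muscle markers, 7 were lower in the R26P cerebrum (9.15 to 10.12 in mutants against 11.11 to 11.74 in controls), 3 in the cerebellum (9.04 to 10.84 against 10.92 to 11.70) and none in ret (7.60 to 9.46 against 9.05 to 10.43, median change -1.38). Of 9 perivascular fibroblast and meningeal markers, 2 were lower in ret and 5 and 4 in the R26P cerebrum and cerebellum (7.86 to 8.80 against 8.89 to 9.55, and 8.39 to 8.99 against 9.48 to 10.14). Of 10 microglial and macrophage markers, 1 was higher in ret (10.90 to 11.76 against 10.29 to 10.85), and 3 and 2 were lower in the R26P regions, where the ranges of the groups overlapped. Of 4 blood leukocyte markers tested, 3 were higher in ret mutants (8.06 to 8.75 against 6.12 to 6.87 in controls). In the R26P cerebrum 1 was higher (8.01 to 9.76 in mutants against 6.62 to 7.68). In the R26P cerebellum 0 passed (7.04 to 9.40 against 7.18 to 8.35). Choroid plexus markers averaged 8.97 to 10.34 in ret controls and 8.33 to 11.22 in ret mutants, where mutant 4 was the high array. In cerebrum they averaged 10.76 to 12.04 in R26P controls and 9.52 to 11.16 in mutants, and in cerebellum 11.76 to 13.30 and 11.14 to 11.89. Pituitary transcripts stood high on ret mutants 1, 2 and 4 (marker means 10.86, 10.15 and 12.52, against 3.33 to 3.61 in ret controls), and also on R26P control cerebrum 2 and 3, mutant cerebrum 2 and 3, wild-type cerebrum 3 and mutant cerebellum 3. Mutant cerebellum 3, at 10.88, was the only cerebellum array of this kind, and its lowest-in-group Gabra6, a cerebellar granule cell gene, left the region labels of R26P mutant pair 3 unsettled. The labelled sex went against Xist on 4 of 4 ret control arrays and on none of the other 26. In whole fragments, fewer cells of a type and less RNA per cell cannot be told apart, and the part these markers have in the carrier changes below was not tested except where a value is given.

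Between 32 and 37 of the 163 carriers passed the test in each mutant comparison. In ret mutants 13 members were higher, 19 were lower and 131 did not pass (limma, two-sided, Benjamini-Hochberg adjusted p below 0.05 over 11243 genes); this is 19.6% of members, beside 16.6% of all genes tested. In the R26P cerebrum 11 were higher and 26 lower, which is 22.7% of members beside 18.7% of all genes. In the R26P cerebellum 15 were higher and 20 lower, which is 21.5% of members beside 15.6%. The median change over members was 0.05 in ret, -0.04 in cerebrum and -0.08 in cerebellum, beside 0.01, 0.01 and 0.00 over all genes. All genes were called lower in 8.63%, 10.3% and 8.70% of cases and higher in 8.00%, 8.35% and 6.94%. Arrays of the compared groups did not overlap for 41, 46 and 41 members, beside 23.5%, 25.9% and 22.8% of all genes.

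With 4 arrays a group, many of these calls hang on single arrays. A call is described as kept where it passed with each of the 8 arrays left out in turn; 16 of 32 calls were kept in ret (11 lower, 5 higher), 20 of 37 in the R26P cerebrum (15 lower, 5 higher) and 16 of 35 in the cerebellum (11 lower, 5 higher). No member was called in opposite directions in any 2 of the 3 comparisons. In all, 67 members passed in at least 1 mutant comparison and 96 in none. How many of all genes did so was not counted. These counts, and that of members called in all 3 comparisons below, therefore only describe the members. Cerebrum and cerebellum arrays of the same number deviated together, so the 2 R26P comparisons are not independent of each other, while ret and R26P share no arrays. The replicate numbers are not known to pair mutants with controls. Each ret call described below was also tested without the 3 pituitary-high mutant arrays, an alternative chosen after the arrays were seen, which leaves 1 mutant array that is assumed to vary like the controls; 6 members were then higher and 12 lower, beside 8.17% of all genes called (3.92% higher, 4.25% lower).

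**Figure D1:**
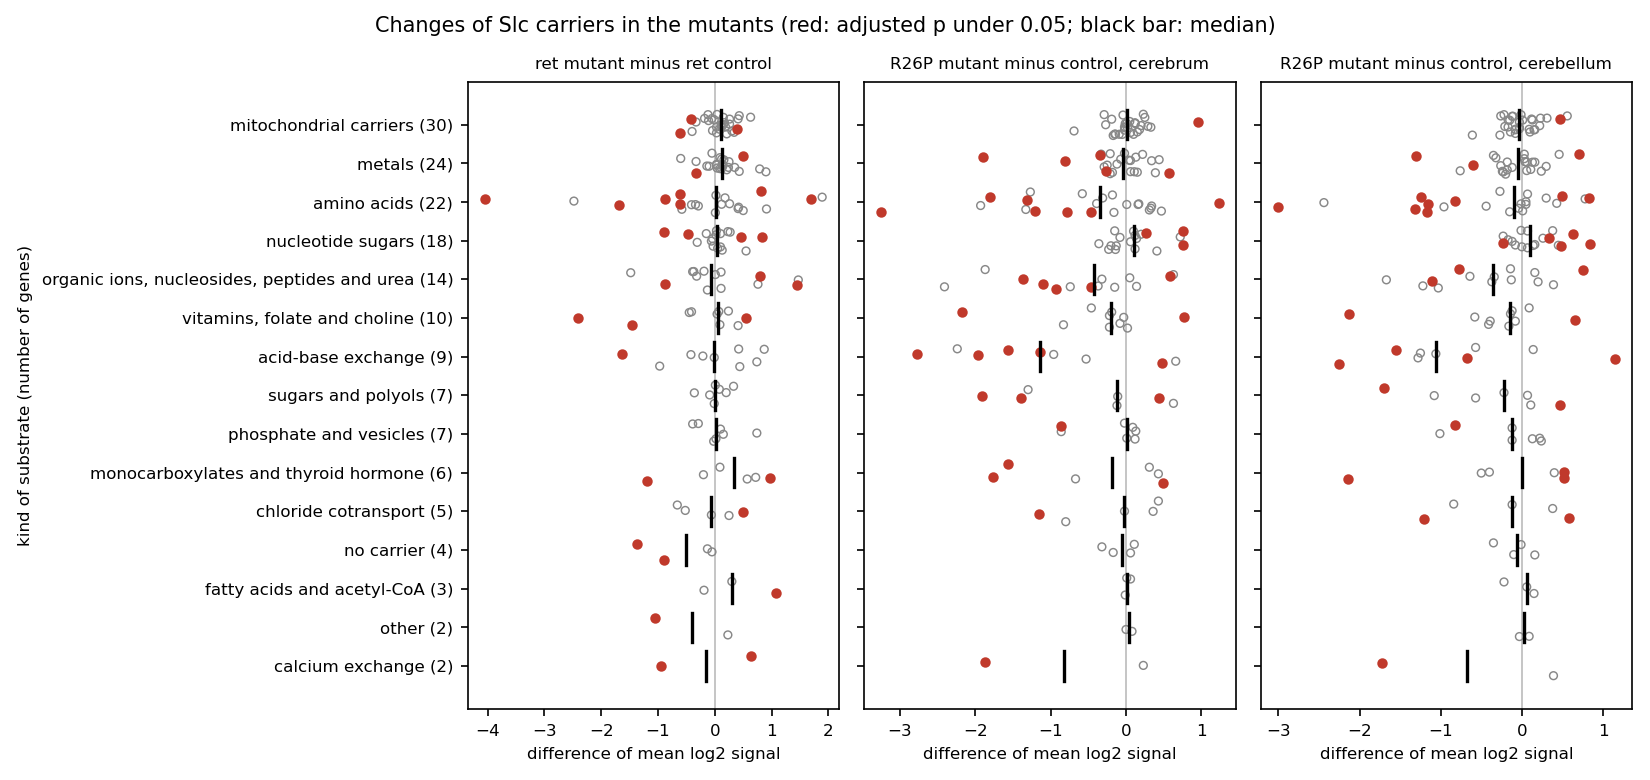
Log2 change (mutant minus control) of each of the 163 members, in rows by substrate class, for ret (left), R26P cerebrum (middle) and R26P cerebellum (right). Each point is 1 gene, red points passed the test, and the bar is the median of the class; the acid-base class has medians of -0.01, -1.14 and -1.06, and the amino acid carriers medians of 0.02, -0.35 and -0.09.

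The same direction was called in all 3 comparisons for 10 carriers. Of these 8 were lower: Slc6a20a, Slc19a1, Slc4a4, Slc7a2, Slc16a12, Slc24a3, Slc6a9 and Slc6a8. The other 2, Slc43a2 and Slc39a11, were higher. Their promoters show what sequence lies before genes called in all 3 comparisons, in either direction. Of the 10, 8 were matched in the RefSeq promoter table used here (GRCm38.p6), and Slc7a2 and Slc6a8 were not. The 3 shown are those of the 2 largest called falls and of the largest called rise in ret, as the 250 bases before the most upstream annotated start, on the gene's strand, 5′ to 3′. Slc6a20a lies on the minus strand at chr9:123678833-123679082, Slc19a1 on the plus strand at chr10:77032489-77032738 and Slc43a2 on the plus strand at chr11:75531444-75531693. Capitals mark matches on either strand to GGGCGG, the GC box, or to the CCAAT box.
Slc6a20a: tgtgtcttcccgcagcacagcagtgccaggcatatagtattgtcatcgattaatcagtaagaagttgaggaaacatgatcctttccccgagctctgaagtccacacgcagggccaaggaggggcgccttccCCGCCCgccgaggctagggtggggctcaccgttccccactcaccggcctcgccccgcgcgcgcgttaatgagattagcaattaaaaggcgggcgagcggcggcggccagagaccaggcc
Slc19a1: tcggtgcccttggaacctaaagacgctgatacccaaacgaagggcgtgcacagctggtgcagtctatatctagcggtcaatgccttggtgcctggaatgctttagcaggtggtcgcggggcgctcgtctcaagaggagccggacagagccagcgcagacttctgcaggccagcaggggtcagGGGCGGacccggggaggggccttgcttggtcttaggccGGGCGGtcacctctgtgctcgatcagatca
Slc43a2: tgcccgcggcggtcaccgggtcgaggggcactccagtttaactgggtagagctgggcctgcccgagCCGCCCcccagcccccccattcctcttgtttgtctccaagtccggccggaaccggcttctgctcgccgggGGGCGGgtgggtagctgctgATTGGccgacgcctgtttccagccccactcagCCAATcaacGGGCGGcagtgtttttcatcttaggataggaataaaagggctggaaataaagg

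The Slc6a20a window had 61.2% G and C and a single GC box on the opposite strand, 119 to 114 bases before the start. The Slc19a1 window (62.0% G and C) had GC boxes 68 to 63 and 30 to 25 bases before the start. The Slc43a2 window (62.8%) had GC boxes at 114 to 109 and 53 to 48, and on the opposite strand at 184 to 179, with CCAAT boxes at 62 to 58 and, on the opposite strand, at 94 to 90. No match shown overlaps another. Of the 8 windows, which include those of both members that rose, 6 held GGGCGG and 2 held CCAAT. Of 27025 promoter windows of the same length, from genes expressed here or not, 33.0% held GGGCGG and 34.5% held CCAAT. None of the 8 held TATAAA (13% of all windows) or the letters GTGGGAA of the RBPJ core (5.39% of all windows). These are descriptions of letters in a window and identify no bound factor.

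Slc6a20a, a sodium-dependent carrier of proline and other imino acids, fell most in every mutant comparison. Its level was 9.90, 10.44, 10.71 and 10.16 on ret control arrays 1 to 4 and 6.08, 5.38, 5.68 and 7.86 on ret mutant arrays 1 to 4. In cerebrum it was 11.45, 11.54, 10.86 and 11.04 in R26P controls and 7.49, 7.83, 8.67 and 7.92 in mutants. In cerebellum it was 12.13, 12.11, 11.77 and 11.64 in controls and 9.12, 9.43, 9.09 and 7.98 in mutants. No mutant array reached a control array of its comparison. The change was -4.05 ± 0.52 (SE) in ret, a 16.6-fold fall (adjusted p = 0.0026), -3.25 ± 0.27 in cerebrum, or 9.49-fold (0.00027), and -3.01 ± 0.30 in cerebellum, or 8.04-fold (0.00079). All 3 calls were kept, and with the 3 pituitary-high ret mutants left out together the ret change was -4.62 (adjusted p = 0.0073).

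Slc19a1, the reduced folate carrier, had the next largest called fall in ret, and its calls were kept in all 3 comparisons. It read 11.03, 11.33, 11.61 and 11.35 in ret controls and 8.52, 8.52, 8.26 and 10.40 in ret mutants, where mutant 4 stood nearest to the controls. The R26P cerebrum read 11.86 to 12.07 in controls and 9.75, 9.82, 10.35 and 9.26 in mutants, and the cerebellum 12.67, 12.85, 12.51 and 12.66 in controls and 10.70, 11.18, 10.63 and 9.65 in mutants. Controls lay close together in each set and every mutant lay below them. The changes were -2.40 ± 0.45 (5.29-fold, adjusted p = 0.0114), -2.18 ± 0.21 (4.53-fold, 0.00055) and -2.13 ± 0.29 (4.38-fold, 0.0031). Without the pituitary-high arrays the ret change was -3.07 (0.0080).

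Slc4a4, the electrogenic sodium bicarbonate cotransporter known from astrocytes, fell more in the R26P cerebrum than it did elsewhere in size, although no test of the difference between regions or models passed for it. It read 6.94, 8.09, 7.50 and 7.48 in ret controls and 5.97, 5.18, 6.05 and 6.25 in ret mutants. The R26P cerebrum read 7.14, 7.81, 7.21 and 6.93 in controls against 4.35, 4.54, 4.58 and 4.50 in mutants, close to the filter level of 4, and the cerebellum 8.19, 8.45, 8.31 and 7.88 against 6.88, 6.30, 5.58 and 5.07. The groups did not overlap in any of them. Changes were -1.64 ± 0.30 (adjusted p = 0.0100), -2.78 ± 0.18 (6.87-fold, 0.00013) and -2.25 ± 0.37 (4.77-fold, 0.0065), each kept; without the 3 pituitary-high arrays the ret change was -1.45 and did not pass (0.1416).

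A further pair of amino acid carriers and the creatine carrier fell with these. Slc7a2, a carrier of arginine and other cationic amino acids, read 7.10, 7.79, 7.56 and 6.90 in ret controls and 5.67, 5.40, 5.46 and 6.10 in mutants. The R26P cerebrum read 7.92, 8.57, 7.58 and 7.91 in controls and 6.10, 5.98, 6.65 and 6.06 in mutants. Both sets were apart, with changes of -1.68 ± 0.23 (adjusted p = 0.0035) and -1.80 ± 0.23 (0.0020). In cerebellum the change of -1.16 ± 0.30 (0.0366) failed without control 1, control 2 or any mutant array (adjusted p up to 0.093), and without the pituitary-high arrays the ret call missed the threshold (-1.88, 0.0669). Slc6a9, the glycine carrier GlyT1, read 7.44 to 7.87 in ret controls and 6.57 to 6.82 in mutants, a change of -0.88 ± 0.12 (0.0036). Its changes were -1.21 ± 0.13 in the R26P cerebrum (0.00099) and -1.32 ± 0.21 in cerebellum (0.0061), all 3 kept, but the ret call did not pass without the pituitary-high arrays (-0.82, 0.1104). Slc6a8, the creatine carrier, changed by -0.62 ± 0.15 in ret (0.0268), -0.78 ± 0.15 in cerebrum (0.0116) and -0.83 ± 0.12 in cerebellum (0.0033). Its R26P calls were kept, and its ret call failed without control 2, 3 or 4 or mutant 1 or 2 (adjusted p up to 0.077) and without the pituitary-high arrays (-0.47, 0.2903).

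Slc16a12 and Slc24a3 completed the group that fell. Slc16a12, a monocarboxylate family member that carries creatine, read 10.11, 9.91, 9.69 and 9.67 in R26P control cerebellum and 8.02, 7.87, 7.65 and 7.29 in mutant cerebellum, a fall of 2.14 ± 0.17 (4.40-fold, adjusted p = 0.00034). In cerebrum it fell by 1.76 ± 0.18 (3.38-fold, 0.00078). In ret it changed by -1.20 ± 0.25 (0.0158), a call that failed without control 2 (0.0501) and without the pituitary-high arrays (-0.63, 0.2109). Slc24a3, a potassium-dependent sodium/calcium exchanger, read 7.75, 7.54, 6.89 and 7.56 in R26P control cerebrum against 5.26, 5.18, 5.99 and 5.86 in mutants, and 7.64, 7.67, 7.37 and 8.05 in control cerebellum against 5.99, 5.66, 6.37 and 5.79. Mutants were below all controls, with changes of -1.87 ± 0.25 (0.0023) and -1.73 ± 0.19 (0.0012), both kept. The ret change of -0.95 ± 0.21 (0.0195) failed without control 2, control 3 or mutant 2 (adjusted p up to 0.060), yet passed without the pituitary-high arrays (-1.31, 0.0373).

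Slc43a2, a facilitated carrier of large neutral amino acids (LAT4), had the largest called rise in ret and in the R26P cerebrum. It read 9.66, 9.47, 9.52 and 9.35 in ret controls and 10.89, 11.49, 11.46 and 10.92 in ret mutants, and 9.18, 8.71, 9.20 and 9.33 in R26P control cerebrum against 10.32, 10.34, 10.08 and 10.60 in mutants. Mutants were above all controls, by 1.69 ± 0.16 (3.23-fold, adjusted p = 0.00083) and 1.23 ± 0.16 (2.35-fold, 0.0021), both kept, and the ret change was 1.96 (0.0072) without the pituitary-high arrays. The cerebellum read 9.01, 8.64, 9.16 and 9.66 in controls and 9.82, 9.96, 9.83 and 10.19 in mutants; that rise of 0.83 ± 0.21 (0.0341) failed when any array other than control 4 was left out (adjusted p up to 0.087). Slc39a11, a zinc carrier of the ZIP family, rose by 0.50 ± 0.13 (0.0416), 0.57 ± 0.15 (0.0345) and 0.71 ± 0.15 (0.0168). None of its calls was kept: the cerebellum call failed without mutant 3 alone (0.051), the cerebrum call without any control or mutant 3 or 4 (up to 0.087), and the ret call without control 2, 3 or 4 or mutant 1, 2 or 4 (up to 0.11) and without the pituitary-high arrays (0.20, 0.5714).

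**Figure D2:**
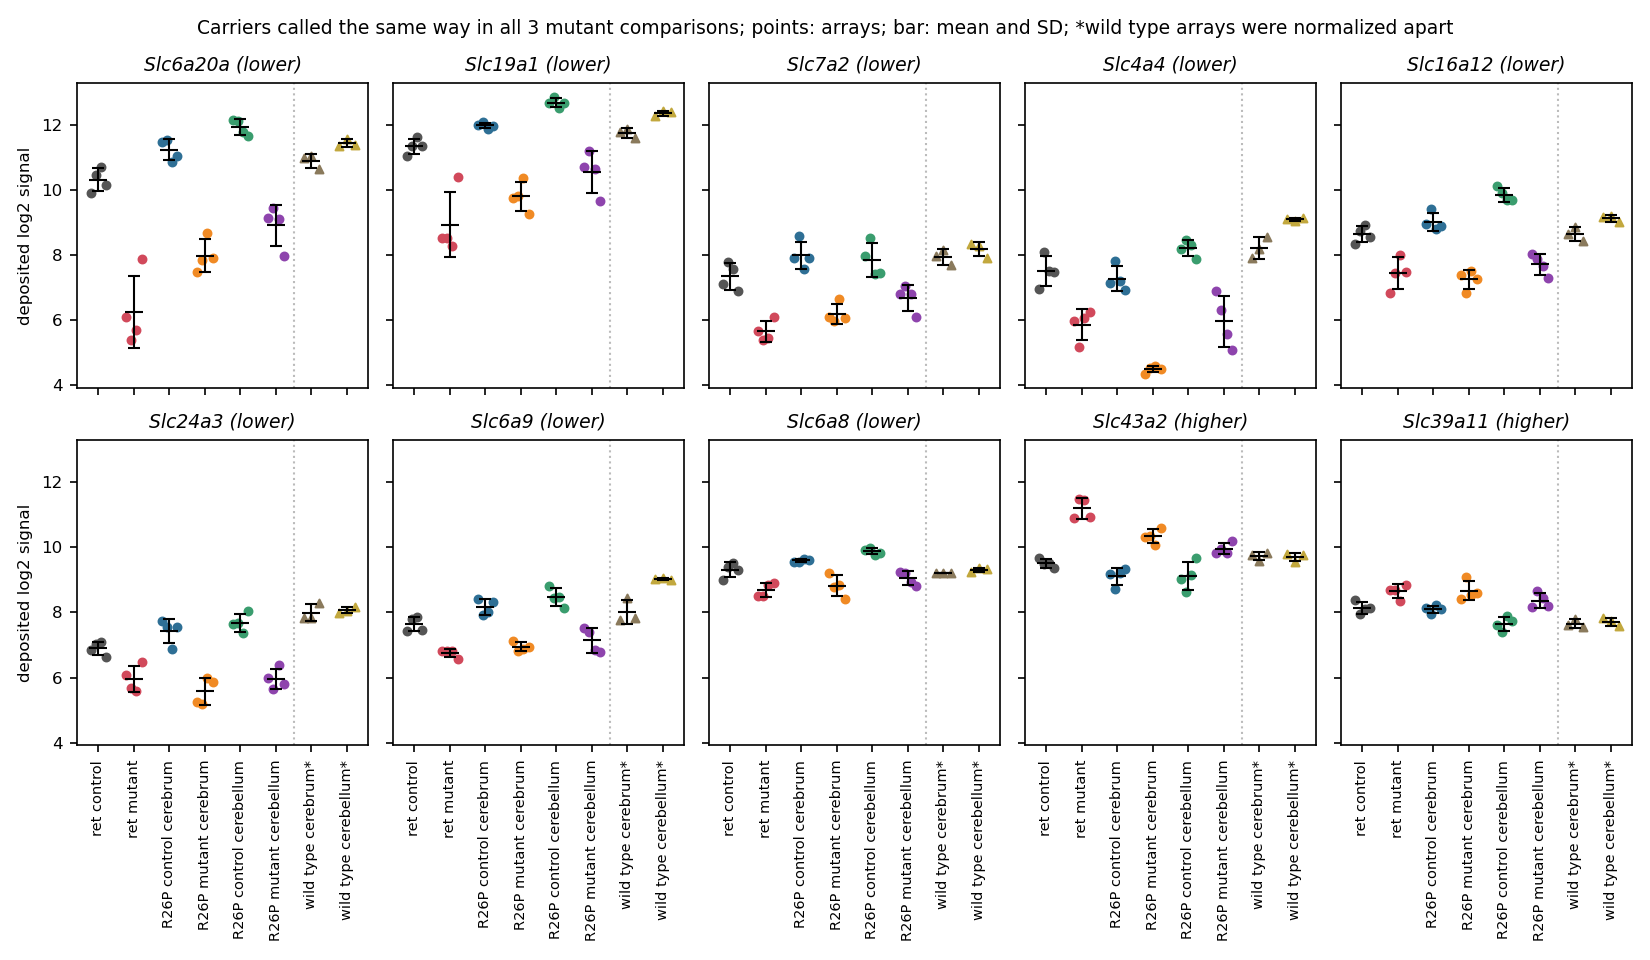
Log2 level of the 10 carriers that passed in the same direction in all 3 mutant comparisons, 1 panel a gene, over the 8 groups of genotype and region. Each point is 1 array, bars are the group mean and SD, and wild-type arrays, drawn as triangles, were normalized apart; for Slc6a20a the ret mutants lie at 5.38 to 7.86 and their controls at 9.90 to 10.71.

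Among the 22 amino acid carriers (Slc1, Slc6, Slc7, Slc36, Slc38 and Slc43), 2 were higher and 5 lower in ret, 1 and 6 in the R26P cerebrum, and 2 and 6 in the cerebellum. Their medians were 0.02, -0.35 and -0.09. Counts by class, here and below, describe few genes each, and 16.6%, 18.7% and 15.6% of all genes were called in these comparisons. Slc6a6, the taurine carrier, read 14.78, 14.77, 14.75 and 15.02 in ret controls and 14.41, 14.40, 13.95 and 14.10 in ret mutants, a fall of 0.62 ± 0.13 (adjusted p = 0.0153) that was kept and passed without the pituitary-high arrays (-0.88, 0.0379). Its R26P changes of -0.18 and 0.05 did not pass (0.3056, 0.8745). Slc7a7, a light chain that exchanges cationic for neutral amino acids, rose in ret by 0.82 ± 0.16 (0.0130), from 9.42 to 9.93 in controls to 10.13 to 10.77 in mutants; the call was kept but not reached without the pituitary-high arrays (0.94, 0.0765). Leukocyte markers rose in the same arrays, and their part in this was not tested. Slc1a1, the glutamate carrier EAAT3, changed by -1.32 ± 0.34 in cerebrum (0.0328) and -1.17 ± 0.31 in cerebellum (0.0411). Mutant 4 read lowest in both regions (9.05 and 9.38), and the cerebellum call failed in each case where this array stayed in and another was left out (up to 0.10), the cerebrum call without control 1, 2 or 4 or mutant 1 or 2 (up to 0.087). Slc38a1, a sodium-coupled glutamine carrier, fell in cerebellum by 1.24 ± 0.24 (0.0131, kept), from 8.09 to 9.11 in controls to 7.29 to 7.88. In cerebrum its change of -1.33 ± 0.43 did not pass (0.0670).

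Other amino acid carriers had wide differences that did not pass. Slc7a3, another cationic amino acid carrier, read 8.64 to 9.39 in ret controls and 5.35, 7.94, 8.12 and 5.34 in mutants, without overlap, and its change of -2.48 ± 0.71 missed the threshold (adjusted p = 0.0505). Its readings of 5.35 and 5.34 recurred on R26P mutant arrays of both regions. Slc7a10, the alanine-serine-cysteine carrier Asc-1 of astrocytes and neurons, changed by -1.27 ± 0.52 in cerebrum and -0.96 ± 0.43 in cerebellum (0.1308, 0.1741). Slc6a17, a synaptic vesicle carrier of neutral amino acids, had a change of 1.89 in ret that did not pass (0.0550).

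The vitamin, folate and choline families (Slc19, Slc23, Slc44, Slc46, Slc48, Slc49 and Slc52) had 10 members, of which 1 was higher and 2 lower in ret and 1 was higher and 1 lower in each R26P region. Besides Slc19a1, the riboflavin carrier Slc52a3 fell in ret from 12.92, 12.70, 12.81 and 12.65 in controls to 11.53, 11.27, 11.33 and 11.12 in mutants. That fall of 1.46 ± 0.11 (2.75-fold, adjusted p = 0.00032) was kept and held without the pituitary-high arrays (-1.44, 0.0126). In R26P, groups overlapped and the changes of -0.83 ± 0.24 and -0.39 ± 0.25 did not pass (0.0510, 0.3136). Slc44a1, a choline carrier, read 12.30, 12.36, 12.21 and 12.28 in R26P control cerebrum against 12.95 to 13.18 in mutants, and 12.36, 12.49, 12.33 and 12.37 in control cerebellum against 13.17, 12.83, 13.01 and 13.16. It rose by 0.77 ± 0.08 (0.00075) and 0.65 ± 0.09 (0.0038), both kept, while the ret change of 0.24 ± 0.11 did not pass (0.1719). Both thiamine carriers differed little: Slc19a2 was 0.55 ± 0.15 higher in ret (0.0454), a call that failed without any ret control or mutant 1 or 4 (up to 0.10) but passed without the pituitary-high arrays (0.97, 0.0113), and Slc19a3 changed by -0.45 ± 0.13 there (0.0565).

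Acid-base carriers were the class with the lowest R26P medians. Of 9 members of Slc4, Slc9 and Slc26, none was higher and 1 lower in ret, 1 was higher and 4 lower in the R26P cerebrum, and 1 higher and 3 lower in the cerebellum. Class medians were -0.01, -1.14 and -1.06. Slc9a2, a sodium/proton exchanger, read 8.05, 7.92, 7.86 and 7.80 in R26P control cerebrum and 7.04, 6.92, 7.03 and 6.07 in mutants, a fall of 1.14 ± 0.22 (adjusted p = 0.0106), and it fell by 0.67 ± 0.12 in cerebellum (0.0089); both were kept. Slc4a3, a chloride/bicarbonate exchanger, read 9.52, 8.87, 9.43 and 9.28 against 7.64, 7.47, 8.26 and 7.44 in cerebrum, a fall of 1.57 ± 0.22 (0.0026, kept), and its cerebellar change of -1.25 ± 0.43 did not pass (0.0887). Slc9b2, a sodium/proton exchanger of another branch, was 1.15 ± 0.27 higher in cerebellum (0.0286), a call that failed when any array other than control 3 was left out (up to 0.077). Slc26a2, a sulfate carrier, was 0.48 ± 0.12 higher in cerebrum (0.0264), a call that failed without control 1, 2 or 4 or mutant 1, 2 or 4 (up to 0.063).

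Slc4a10 and Slc4a5 are sodium bicarbonate carriers known from choroid plexus epithelium. Slc4a10 read 10.82, 12.64, 10.94 and 11.19 in R26P control cerebrum and 8.60, 8.90, 10.84 and 9.37 in mutants, and 13.72, 13.40, 12.13 and 12.24 against 11.55, 11.56, 11.42 and 10.75 in cerebellum. Its changes were -1.97 ± 0.57 (adjusted p = 0.0484) and -1.55 ± 0.40 (0.0362), which failed in cerebrum when any array other than mutant 3 was left out (up to 0.11) and in cerebellum without control 1 or 2 or any mutant (up to 0.088). Slc4a5 read 6.43, 8.47, 6.71 and 7.14 in control cerebrum and 4.12, 4.21, 7.25 and 4.19 in mutants, so that mutant 3 alone lay among the controls, and its change of -2.24 ± 0.78 did not pass (0.0824).

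The high arrays of these genes were those with high choroid plexus markers: control cerebrum 2 (marker mean 12.04) and mutant cerebrum 3 (11.16, beside 9.52 to 9.75 on the other 3 mutants). With the mean choroid plexus marker level as a covariate, an alternative chosen after these values were seen, the R26P cerebrum had 1 member higher and 9 lower, which is 6.13% of members beside 3.79% of all genes in that fit (1.43% higher, 2.36% lower). The cerebellum then had 2 higher and 4 lower, which is 3.68% beside 3.99% (1.65% higher, 2.35% lower). Slc4a10 then changed by -0.30 in cerebrum (adjusted p = 0.6772). In cerebrum the calls that remained were Slc6a20a, Slc19a1, Slc4a4, Slc7a2, Slc16a12, Slc6a9, Slc5a3 and Slc20a2 (lower) and Slc44a1 (higher), with Slc36a1 added; in cerebellum Slc6a20a, Slc16a12, Slc24a3 and Slc12a2 (lower) and Slc35e4 (higher) remained, with Slc25a33 added. The covariate takes 1 of few residual degrees of freedom and differs itself between genotypes, so a lost call does not show that a gene follows these markers.

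**Figure D3:**
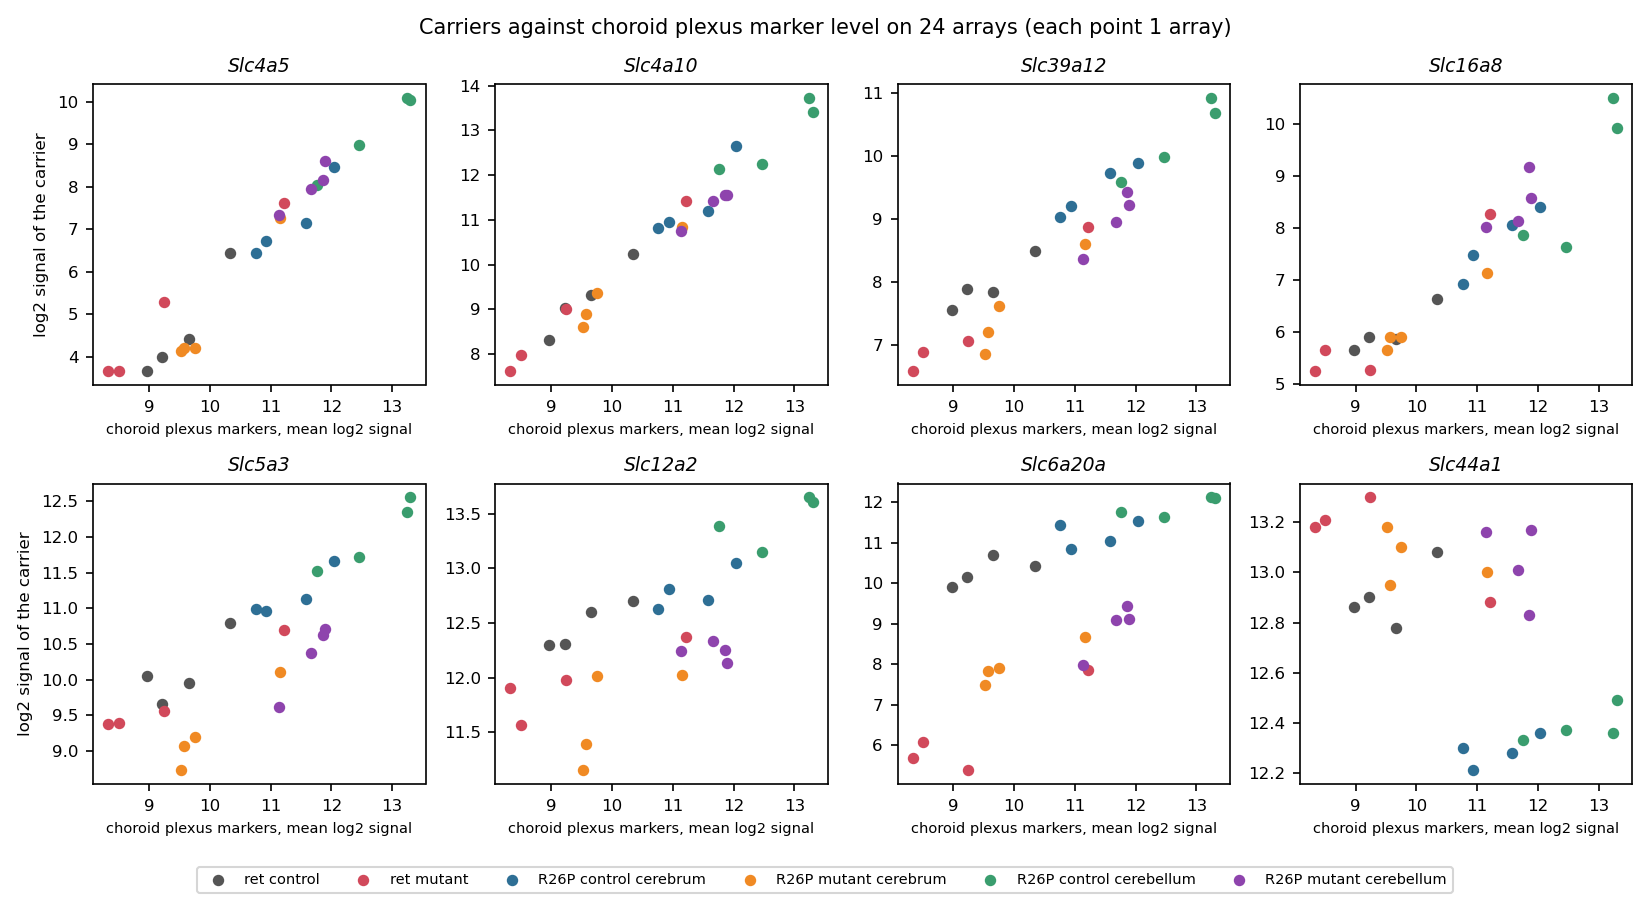
Log2 level of 8 carriers (vertical axes) against the mean log2 level of the choroid plexus markers (horizontal axis) on the 24 ret and R26P arrays, coloured by group. Slc4a5 and Slc4a10 lie high where the markers are high in mutants and controls alike, as on mutant cerebrum 3 (markers 11.16, Slc4a5 7.25). Slc6a20a, and Slc44a1 in R26P, separate mutants from controls, but few arrays of an R26P region have like marker levels. In cerebrum only mutant 3 lies within the control range (10.76 to 12.04). In cerebellum only control 3 (11.76) lies within the mutant range (11.14 to 11.89).

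The chloride cotransporter Slc12a2 and the polyol carrier Slc5a3 fell in both R26P regions and did not pass in ret, and the test of the difference between models did not pass for either. Slc12a2, which brings in sodium, potassium and chloride (NKCC1), read 13.65, 13.61, 13.39 and 13.15 in R26P control cerebellum and 12.13, 12.25, 12.33 and 12.24 in mutants, a fall of 1.21 ± 0.12 (adjusted p = 0.00075). In cerebrum it fell by 1.16 ± 0.22 (0.0100), from 12.63 to 13.05 in controls to 11.15 to 12.02, and both calls were kept, while the ret change was -0.52 ± 0.18 (0.0892). Of the other 4 members of Slc12, the potassium-chloride cotransporter Slc12a7 was 0.58 ± 0.11 higher in cerebellum (0.0109, kept), and Slc12a9, an orphan member, was 0.50 ± 0.13 higher in ret (0.0327), which failed without control 1, 2 or 3 or mutant 2, 3 or 4 (up to 0.089) and without the pituitary-high arrays (0.66, 0.1627). Slc5a3, the sodium/myo-inositol cotransporter, read 10.99, 11.67, 10.96 and 11.13 in R26P control cerebrum and 8.73, 9.07, 10.11 and 9.20 in mutants. It fell by 1.91 ± 0.30 there (3.76-fold, 0.0046) and by 1.70 ± 0.31 in cerebellum (3.26-fold, 0.0111), both kept, and in ret it changed by -0.36 ± 0.36 (0.5253).

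Sugar carriers outside Slc2a1 were few among the members. Slc2a12, a glucose carrier, fell in cerebrum by 1.39 ± 0.32 (adjusted p = 0.0220), a call that failed without control 4 or mutant 1, 2 or 4 (up to 0.058). Slc2a5, the fructose carrier known from microglia, had group ranges of 7.81 to 10.60 and 6.71 to 9.23 in control and mutant cerebrum and did not pass (-1.30 ± 0.70, 0.2333). Slc50a1, a sugar efflux carrier of intracellular membranes, was 0.44 ± 0.11 higher in cerebrum (0.0299) and 0.47 ± 0.12 higher in cerebellum (0.0357). Both calls were fragile: the first failed without control 1, 2 or 3 or mutant 1 or 2 (up to 0.075), the second when any array other than control 2 was left out (up to 0.088). Slc5a6, the biotin and pantothenate carrier that shares the Slc5 family, passed in none (0.33, 0.63 and 0.11).

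The 6 monocarboxylate carriers of the Slc16 family moved in both directions. Slc16a9 read 11.12, 11.36, 11.39 and 11.19 in R26P control cerebrum against 11.84, 11.82, 11.58 and 11.77 in mutants, a rise of 0.49 ± 0.10 (adjusted p = 0.0124, kept). It was 0.52 ± 0.12 higher in cerebellum (0.0300), which failed without control 1, 2 or 4 or mutant 1, 3 or 4 (up to 0.081), and its change in ret was 0.72 ± 0.23 (0.0733). Slc16a6, a carrier of ketone bodies, rose in ret from 7.62, 7.37, 6.83 and 7.72 to 8.13, 8.42, 8.19 and 8.72, by 0.98 ± 0.22 (0.0218); it failed without control 2 or mutant 2 (up to 0.061) and without the pituitary-high arrays (0.80, 0.2854). Slc16a13 was 0.52 ± 0.13 higher in cerebellum (0.0308), which failed without control 1, 2 or 4 or mutant 1, 2 or 3 (up to 0.078). Slc16a8, a lactate carrier of retinal pigment and choroid plexus epithelium, changed by -1.56 ± 0.41 in cerebrum (0.0347). Mutant cerebrum 3, with its high choroid plexus markers, read 7.14 beside 5.67 to 5.91 on the other mutants, it failed without control 2, 3 or 4 or mutant 1, 2 or 4 (up to 0.086), and with the marker covariate the change was -0.34 (0.3738).

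Metal carriers were 24, in Slc11, Slc30, Slc31, Slc39, Slc40 and Slc41, and most did not pass: 22 in ret, 19 in the R26P cerebrum and 21 in the cerebellum. Most genes did not pass either, as 16.6%, 18.7% and 15.6% of all genes were called. Slc39a10, a zinc importer, read 14.58, 14.69, 14.52 and 14.49 in R26P control cerebrum against 13.90, 14.04, 13.91 and 13.18 in mutants, with a change of -0.81 ± 0.18 (adjusted p = 0.0206) that failed without control 1 or 2 (up to 0.057). In cerebellum it changed by -0.60 ± 0.16 (0.0375), which failed without any control or mutant 3 (up to 0.091), and in ret by -0.33 ± 0.10 (0.0576). Slc30a1, the zinc exporter ZnT1, read 14.77 to 15.02 in ret controls and 14.53 to 14.69 in mutants, a change of -0.33 ± 0.08 (0.0259) that failed without control 2 or 3 or mutant 1 or 2 (up to 0.072) and without the pituitary-high arrays (-0.22, 0.3681). Slc39a12, a zinc importer of brain, fell in cerebrum by 1.90 ± 0.38 (3.72-fold, 0.0126, kept), from 9.03 to 9.89 in controls to 6.86, 7.21, 8.60 and 7.62 in mutants, and mutant 3 was again the high one. In cerebellum its change of -1.30 ± 0.34 (0.0395) failed when any array other than control 3 was left out (up to 0.097), and with the choroid plexus covariate the cerebral change was -0.79 (0.0956). The iron exporter ferroportin, Slc40a1, read 13.56 to 14.19 on every R26P array and its changes of 0.25, 0.04 and 0.03 did not pass (0.1033, 0.8544, 0.9020). Slc39a8, which imports zinc and manganese, did not pass either (0.24, 0.39 and 0.30).

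Carriers of organic ions, nucleosides, peptides and related solutes (Slc10, Slc13, Slc15, Slc22 and Slc29, 14 members) were lower for 1, 4 and 2 members and higher for 2, 1 and 1. The share of all genes called was 16.6%, 18.7% and 15.6%. Slc22a8, the organic anion carrier OAT3 of the barrier, read 12.63, 12.96, 12.76 and 13.39 in ret controls and 12.39, 11.93, 12.15 and 11.80 in mutants. It fell by 0.87 ± 0.19 (adjusted p = 0.0212), a call that failed without control 2 or mutant 2 (up to 0.060) and without the pituitary-high arrays (-0.79, 0.2272). In the R26P cerebrum it read 12.28, 12.62, 12.19 and 12.13 against 11.69, 11.46, 11.46 and 10.92 and fell by 0.93 ± 0.18 (0.0119, kept), and the cerebellar change of -0.64 ± 0.21 did not pass (0.0774). Slc29a4, a monoamine carrier, changed by -1.37 ± 0.35 in cerebrum (0.0310) and -1.11 ± 0.29 in cerebellum (0.0381). The first failed without control 2, 3 or 4 or mutant 1 or 4 (up to 0.080) and the second when any array other than control 3 was left out (up to 0.092). The nucleoside carrier Slc29a1 (ENT1) read 6.45, 5.69, 7.20 and 7.67 in ret controls and 8.40, 8.12, 8.14 and 8.10 in mutants, a rise of 1.44 ± 0.39 (0.0445) that failed when any array other than control 4 was left out (up to 0.11) and without the pituitary-high arrays (1.38, 0.3768). Slc10a3, an orphan member, rose by 0.75 ± 0.14 in cerebellum (0.0114, kept) and by 0.59 ± 0.13 in cerebrum (0.0182), which failed there without control 1 (0.053).

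The 18 members of Slc35 were classed by family as nucleotide sugar carriers, many of which load the Golgi and endoplasmic reticulum. In ret 2 were higher and 2 lower. In the R26P cerebrum 3 were higher, and in the cerebellum 4 were higher and 1 lower. Slc35a2 and Slc35e4 were higher in both regions, which are not independent of each other. The share of all genes called higher was 8.00% in ret, 8.35% in cerebrum and 6.94% in cerebellum. Slc35a2, the UDP-galactose carrier, read 8.57, 8.54, 8.82 and 8.79 in R26P control cerebrum against 9.69, 9.24, 9.35 and 9.47 in mutants, and 8.68, 8.64, 8.58 and 9.06 in control cerebellum against 9.54, 9.32, 9.25 and 9.35. It rose by 0.76 ± 0.12 (adjusted p = 0.0049) and 0.63 ± 0.12 (0.0140). Slc35e4, an orphan of the family, read 9.12, 9.06, 9.12 and 9.23 against 10.26, 9.82, 9.71 and 9.78 in cerebrum, a rise of 0.76 ± 0.13 (0.0062), and rose by 0.84 ± 0.10 in cerebellum (0.0017). All 4 calls were kept, and the ret changes were 0.05 and 0.10 (0.7481, 0.5021). The larger of the 2 called rises in ret was that of Slc35b3, which carries the sulfate donor PAPS: it read 10.27, 10.13, 10.16 and 10.39 in controls and 10.93, 11.04, 11.43 and 10.89 in mutants, 0.83 ± 0.13 higher (0.0056, kept; 1.19 and 0.0193 without the pituitary-high arrays). Its cerebral change of 0.41 ± 0.13 did not pass (0.0706) and its cerebellar change of 0.34 ± 0.08 (0.0283) failed without control 1 or 3 or mutant 1, 2 or 3 (up to 0.071). Slc35d2, which carries UDP-N-acetylglucosamine, fell in ret by 0.90 ± 0.15 (0.0071, kept), from 10.29 to 10.66 to 9.20 to 9.79, and did not pass without the pituitary-high arrays (-0.76, 0.0698).

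The 30 mitochondrial carriers of Slc25 were the largest family, and few of them passed. In ret 27 did not pass, and 29 did not pass in each R26P region, with class medians of 0.12, 0.02 and -0.03. Beside this, 16.6%, 18.7% and 15.6% of all genes were called. The adenine nucleotide carriers Slc25a4 and Slc25a5 changed by -0.01, -0.15 and -0.21 and by 0.04, -0.01 and -0.14, with adjusted p between 0.2126 and 0.9642. The phosphate carrier Slc25a3 changed by 0.08, 0.10 and -0.03. In ret, the ATP-magnesium/phosphate carrier Slc25a24 read 11.40 to 11.51 in controls and 10.66 to 11.16 in mutants and fell by 0.61 ± 0.11 (0.0103, kept; -0.79 and 0.0190 without the pituitary-high arrays). The citrate carrier Slc25a1 changed by -0.42 ± 0.11 there (0.0402), which failed without control 1, 3 or 4 or mutant 2, 3 or 4 (up to 0.096) and without the pituitary-high arrays (-0.47, 0.2565).

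Among the remaining classes, the phosphate carrier Slc20a2 (PiT2), which like PDGFB is a known gene of inherited brain calcification in humans, fell in R26P. It read 10.36, 10.23, 10.32 and 10.33 in control cerebrum against 9.35, 9.45, 9.66 and 9.35 in mutants, a fall of 0.86 ± 0.09 (adjusted p = 0.00084, kept). In cerebellum its change of -0.83 ± 0.19 (0.0257) failed without control 1, control 2 or mutant 3 (up to 0.063), and in ret it changed by 0.10 ± 0.21 (0.7907). Slc27a1, a fatty acid carrier, rose in ret by 1.07 ± 0.18 (0.0068, kept), from 5.66, 6.03, 5.83 and 6.29 to 6.99, 6.66, 7.23 and 7.22; without the pituitary-high arrays the change was 1.28 and did not pass (0.0669). Slc8b1, the mitochondrial sodium/calcium exchanger, rose there by 0.63 ± 0.12 (0.0134, kept; 0.90 and 0.0398 without those arrays).

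The scaffold Slc9a3r2 (NHERF2) and Slc66a2, a PQ-loop family member, fell in ret and did not pass in R26P. Slc9a3r2 read 13.22, 13.44, 13.34 and 13.18 in ret controls and 12.26, 12.29, 11.45 and 11.71 in mutants, a fall of 1.37 ± 0.20 (adjusted p = 0.0038). In the R26P cerebrum it read 13.29 to 13.84 in controls and 13.32 to 13.49 in mutants (-0.17, 0.3653). Slc66a2 read 12.10, 12.47, 12.23 and 12.50 against 11.46, 11.35, 11.09 and 11.21 in ret, a fall of 1.05 ± 0.12 (0.0017), and its R26P cerebral change was 0.00 ± 0.17 (0.9918). Both ret calls were kept and held without the pituitary-high arrays (-1.84 and 0.0072; -1.23 and 0.0380).

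The effects of both models were compared directly, as the ret change minus the R26P cerebrum change. It passed for 7 members, 2 higher and 5 lower, which is 4.29% of members beside 3.35% of all genes (1.67% higher, 1.68% lower). They were Slc9a3r2 (-1.20 ± 0.24, adjusted p = 0.0210), Slc66a2 (-1.04 ± 0.21, 0.0236), Slc35a2 (-0.71 ± 0.15, 0.0244), Slc35e4 (-0.66 ± 0.16, 0.0392), Slc44a1 (-0.52 ± 0.13, 0.0484), Slc20a2 (0.95 ± 0.23, 0.0409) and Slc16a6 (1.65 ± 0.33, 0.0210). Thus Slc9a3r2 and Slc66a2 fell more in ret, Slc35a2, Slc35e4 and Slc44a1 rose more in R26P, Slc20a2 fell more in R26P, and Slc16a6 was high in ret mutants while its R26P change was -0.67 ± 0.23 (0.0774). The calls of Slc9a3r2, Slc66a2, Slc35a2 and Slc16a6 were kept with each of the 16 arrays left out, and the others were not. That of Slc44a1 passed without ret mutant 2 and failed without each of the other arrays (up to 0.0962). That of Slc20a2 failed for 11 arrays, all but ret control 4, ret mutants 1, 3 and 4 and R26P mutant 3 (up to 0.0836), and that of Slc35e4 for 10, all but ret control 2, ret mutant 1, R26P control 4 and R26P mutants 1, 3 and 4 (up to 0.0797). Of the 7, Slc9a3r2 alone passed without the 3 pituitary-high ret arrays (-1.67, 0.0025), and Slc66a2 had -1.23 (0.0612). Strain, age, region and the genetic change all differ between the models and cannot be told apart.

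**Figure D4:**
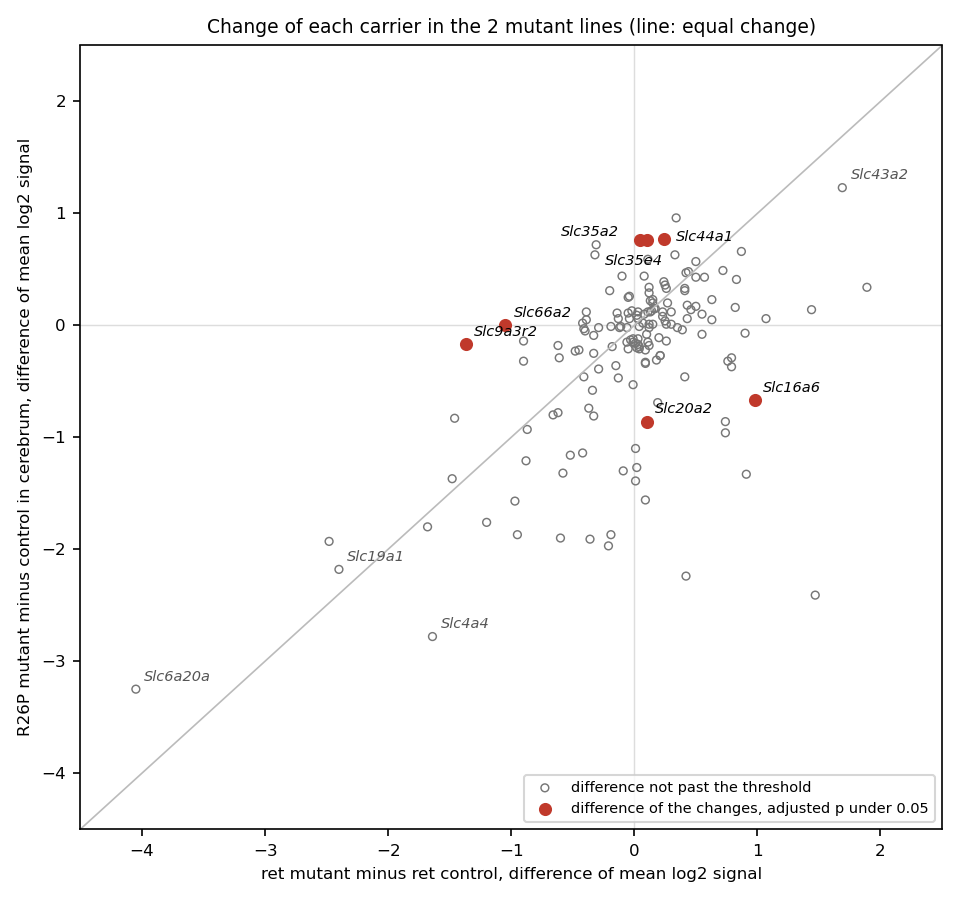
Log2 change of each of the 163 members in ret mutants (horizontal axis) and in the R26P mutant cerebrum (vertical axis), each against its own controls. Red points are the 7 genes whose effects differed between models, such as Slc9a3r2 (-1.37 and -0.17) and Slc16a6 (0.98 and -0.67), and Slc6a20a lies farthest down in both (-4.05 and -3.25).

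The effect of the R26P genotype was not shown to differ between regions for any member. By limma 0 of 163 passed the test of that difference, beside 0.116% of all genes, and 2 members had an unadjusted p under 0.05 (1.23% of members, beside 2.75% of all genes). That fit took no account of the replicate numbers, although arrays of the same number deviated together across regions.

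Cerebellum and cerebrum of the same genotype were compared next. In wild type 4 members were higher in cerebellum and 1 was lower, which is 3.07% of members beside 2.12% of all genes (1.78% higher, 0.338% lower); 40 members had an unadjusted p under 0.05 (24.5%, beside 15.9% of all genes). Slc39a12 read 9.68, 9.75 and 9.66 in cerebrum and 10.67, 10.79 and 10.65 in cerebellum, 1.01 ± 0.07 higher (adjusted p = 0.0052), kept without each of 6 arrays and with the replicate number as a block (0.0288). Slc4a5 read 7.53, 7.54 and 6.89 against 8.86, 9.58 and 9.27 (1.92 ± 0.25, 0.0309), and Slc4a10 read 11.28, 11.50 and 11.08 against 12.25, 13.03 and 12.76 (1.40 ± 0.22, 0.0417). The folate carrier Slc19a1 was 0.61 ± 0.09 higher (0.0396). Slc2a5 read 8.57, 8.16 and 8.04 in cerebrum and 7.12, 7.02 and 7.18 in cerebellum (-1.15 ± 0.15, 0.0305). With the block 1 of these 5 calls was left, Slc39a12, and Slc39a14, a carrier of zinc and iron, was gained (0.73, 0.0478), while 1.2% of all genes were called (0.987% higher, 0.213% lower); Slc2a5, Slc4a5 and Slc4a10 then had 0.0590 and Slc19a1 0.0674. Without single arrays Slc19a1 was lost in 6 of 6 cases, and Slc2a5 (all but cerebrum 1), Slc4a5 and Slc4a10 (all but cerebellum 1) in 5 of 6, with adjusted p up to 0.1607. Choroid plexus markers were 10.85 to 11.24 in wild-type cerebrum and 11.81 to 12.42 in cerebellum, and microglial markers 10.85 to 11.22 and 10.56 to 10.94; their part in these differences was not tested.

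In R26P controls 2 members were higher in cerebellum, Slc19a1 (0.70 ± 0.09, adjusted p = 0.0154) and Slc43a3, a purine carrier counted by its family with the amino acids (0.81 ± 0.14, 0.0467), which is 1.23% of members beside 1.17% of all genes (0.889% higher); 37 members had an unadjusted p under 0.05 (22.7%, beside 14.1%). Single arrays ended both: Slc19a1 failed without cerebrum 1, 3 or 4 or cerebellum 1 or 4 (up to 0.0579), Slc43a3 when any array other than cerebellum 3 was left out (up to 0.1368). With the replicate number as a block, 7 were higher and 6 lower, which is 7.98% of members beside 4.22% of all genes in that fit (3.1% higher, 1.12% lower). Higher in cerebellum were Slc12a2 (0.65), Slc16a12 (0.84), Slc19a1 (0.70), Slc43a3 (0.81), Slc4a4 (0.94), Slc5a3 (0.85) and Slc6a20a (0.69), with adjusted p from 0.0107 to 0.0483. Lower were Slc2a5 (-2.14), Slc7a7 (-1.0), Slc15a2 (-0.73), Slc1a4 (-0.59), Slc39a11 (-0.44) and Slc16a9 (-0.43), with adjusted p from 0.0099 to 0.0472. Pericyte markers read 12.11 to 12.36 in control cerebrum and 12.89 to 13.02 in control cerebellum, beside choroid plexus markers of 10.76 to 12.04 and 11.76 to 13.30. In R26P mutants no member and no gene of the 11243 passed by limma (0.0%), while 25 members had an unadjusted p under 0.05, which is 15.3% of members beside 5.52% of all genes, and 9 members had regions without overlap, beside 2.77% of all genes. With pair 3 left out Slc4a5 alone passed (3.86, adjusted p = 0.0394), beside 0.133% of all genes, but not with the replicate block as well (0.0840).

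Other genes of carrier function, which power, chaperone or regulate these carriers, were counted from a list of 25, of which 16 outside the members could be tested. In ret 2 were higher and 1 lower, in the R26P cerebrum 1 and 8, and in the cerebellum 1 and 4. Of all genes tested, 16.6%, 18.7% and 15.6% were called in these comparisons. The list medians were -0.16, -0.94 and -0.66, beside 0.01, 0.01 and 0.00 over all genes. Atp1b2, the sodium pump subunit of astrocytes, fell in all 3 (-2.36 ± 0.37, -2.93 ± 0.36 and -2.39 ± 0.29; adjusted p = 0.0054, 0.0016 and 0.0020), and Sgk1, a kinase that regulates carriers, rose in all 3 (0.58, 0.72 and 0.62; 0.0160, 0.0017 and 0.0278). The kinases Stk39 (-1.51 and -1.36) and Oxsr1 (-0.56 and -0.49), known to activate Slc12a2, fell in both R26P regions, as did the carbonic anhydrase Car4 (-1.15 and -1.07). A link to the fall of Slc12a2 was not tested, and calls of this list were not checked with single arrays left out. Among the 10 core carriers left out of the members, 4 were lower in ret, 5 lower and 1 higher in the R26P cerebrum and 3 lower in the cerebellum. Their median changes were -0.40, -0.82 and -0.31.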

How the data were processed

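Microvascular RNA was hybridised to 30 Affymetrix arrays, 1 a sample. The authors deposited log2 values, made with GCRMA 2.6.0 under R 2.4.1, per the submitters' processing notes. Arrays have no read depth, and their number limits the precision. The lowest value and the array medians show 2 normalization sets, so the 24 ret and R26P arrays and the 6 wild-type arrays were never compared with each other.

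Of 45101 probe sets, 34958 were paired with 1 gene, 932 with several and 9211 with none, by GEO's platform annotation. Each gene was represented by its brightest probe set (mean of the 30 arrays), and 98 of the 163 members had more than 1. With the probe sets of a gene averaged, 12 of 100 calls of named members did not pass. Genes above 4 in at least 3 arrays were tested, 11243 of 18194. Only the arrays being compared entered a fit, made by lmFit and eBayes of limma 3.58.1 (R 4.3.3); tests were two-sided and p-values were adjusted over every tested gene by the Benjamini-Hochberg method; a call is an adjusted p under 0.05, and values after ± are standard errors unless marked SD. Differences of effects were interaction terms. The fit was tested on simulated data. Animals and pools are not given for the arrays, so p-values measure the spread between these arrays.

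Members and lists were chosen with earlier results of these data known. The text names a selection from up to 10 largest called falls and rises without overlap in each mutant comparison, members called the same way in all 3, up to 6 each way per region comparison, up to 5 each way per difference of effects, the brightest member of each family of 3 or more, the 3 genes on either side of the level limit, and a list of well-known carriers. Slc1a1, Slc1a4, Slc6a17, Slc7a3, Slc15a2, Slc16a8, Slc25a24, Slc25a33, Slc35d2, Slc36a1 and Slc39a14 were added after their values were seen. Across regions, arrays of the same number correlated in their deviations from the group means at 0.344 to 0.483 (wild type), 0.479 to 0.650 (R26P controls) and 0.546 to 0.840 (R26P mutants), so the replicate number was used as a block there, as an alternative. Promoter windows and motifs came from RefSeq on GRCm38.p6. Sex labels and Xist level, marker levels of pituitary and choroid plexus, other filters, priors, probe-set rules and left-out arrays were tried as alternatives.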

Additional observations from a re-analysis of the deposited data

Results flagged for a closer look

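Of 402 sets of 4 arrays (1 gene in 1 group), 22 had 1 array far from the other 3, by a gap that chance alone gives in about 1 of 20 such sets. Among ret arrays, Slc19a1 read 10.40 on mutant 4 beside 8.26 to 8.52 on the others, Slc20a2 read 9.90 there beside 9.10 to 9.22, Slc5a3 read 10.70 beside 9.38 to 9.56, and Slc6a9 read 6.57 beside 6.82. Mutant 4 was also the array with the highest pituitary (12.52) and choroid plexus (11.22) marker means of its group, and the part of this in the 4 values was not tested. Slc29a1 read 8.40 on ret mutant 1 (8.10 to 8.14 on the others), Slc30a1 read 14.69 on ret mutant 3 (14.53 to 14.55), Slc19a2 read 6.54 on ret control 3 (6.65), Slc6a6 read 15.02 on ret control 4 (14.75 to 14.78), and Slc7a10 read 4.73 on ret control 1 (5.80 to 5.92).

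In the R26P cerebrum, Slc4a5 read 7.25 on mutant 3 beside 4.12 to 4.21, the array with the highest choroid plexus mean of its group (11.16). Slc39a10 read 13.18 on mutant 4 (13.90 to 14.04), Slc9a2 read 6.07 on the same array (6.92 to 7.04), Slc37a4 read 9.64 on mutant 2 (9.34 to 9.38), and Slc6a6 read 14.29 on mutant 1 (14.67 to 14.74). In the R26P cerebellum, mutant 1 was high for Slc22a15 (7.15 beside 5.95 to 6.04), Slc25a4 (13.61 beside 13.44 to 13.46) and Slc52a3 (12.31 beside 11.58 to 11.59), and mutant 4 was high for Slc2a5 (8.22 beside 6.10 to 6.42). Of the control cerebellum arrays, Slc16a13 read 7.16 on control 1 (7.47 to 7.51), Slc29a3 read 8.06 and Slc30a1 14.88 on control 2 (8.70 to 8.82 and 14.72 to 14.75), and Slc6a6 read 14.28 on control 4 (14.85 to 14.93).

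For 7 members the ret effect differed from the R26P cerebrum effect by limma's interaction test: Slc16a6 (1.65), Slc20a2 (0.95), Slc35a2 (-0.71), Slc35e4 (-0.66), Slc44a1 (-0.52), Slc66a2 (-1.04) and Slc9a3r2 (-1.20).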

How the results depend on the processing

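No alternative reversed any of the 100 calls of named members. Separate fits of a gene's other probe sets were not part of that check. Members called higher and lower are given in that order below. Counts that stayed near those of the main fit are left out, so a direction not given need not be 0. Of 100 calls of named members, 38 did not pass without the filter on low values. With the replicate number as a block, 39 did not pass. Without the filter on low values more genes were tested, and the counts were 5 higher in ret, 7 and 16 in the R26P cerebrum, 8 and 12 in the cerebellum, 1 and 0 between wild-type regions, 1 higher between control regions, and 1 and 3 between models. With the replicate number as a block they were 5 and 10 in ret, 6 higher in cerebrum, 9 higher in cerebellum, 2 and 0 between wild-type regions, 7 and 6 between control regions, and 1 and 0 between models; mutants and controls share numbers but did not deviate together (correlations from -0.199 to 0.337). Between wild-type regions, a mean above 6 gave 8 higher, averaged probe sets 2 lower, and an intensity trend 13 and 3; between control regions the last 2 gave 0 higher, and 4 and 1. Renewed quantile normalization gave 17 higher and the sex label 7 higher in cerebrum. The pituitary covariate gave 7 higher in ret and, chosen after the data were seen, 5 and 13 in cerebellum. Also chosen after the data were seen were the choroid plexus covariate (1 and 9 in cerebrum, 2 and 4 in cerebellum), leaving out the 3 pituitary-high ret arrays (6 and 12 in ret, 1 and 2 between models) and leaving out mutant pair 3 (1 higher between mutant regions). Elsewhere the cause of a changed count was not tested.

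Leaving out 1 array at a time, the counts ran from 5 to 15 higher and 12 to 22 lower in ret, 5 to 10 and 17 to 32 in cerebrum, 5 to 12 and 11 to 22 in cerebellum, 1 to 4 and 0 to 1 between wild-type regions, 0 to 3 and 0 to 1 between control regions, 0 to 3 and 0 between mutant regions, 0 for the difference between regions, and 1 to 5 and 3 to 5 between models. In ret the higher count fell without control 1 (8), control 2 (5, with 12 lower), mutant 2 (7) and mutant 3 (8). In cerebrum it fell without control 1 (5), control 2 (7), mutant 1 (7) and mutant 2 (7), and the lower count to 17 without control 2, control 4 or mutant 2. In cerebellum the counts were 7 and 12 without control 1, 8 and 11 without control 2, 7 higher without mutant 1, and 5 and 13 without mutant 3. Few arrays, and levels near the filter level of 4 for genes such as Slc4a5, limit what can be told.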

Other observations

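Both regions of the same R26P mutant number gave nearly the same level for 2 members whose level differed widely between replicate numbers, a pattern chosen after the values were seen. Slc7a3, a cationic amino acid carrier, read 4.37, 5.34, 7.96 and 5.34 in mutant cerebrum 1 to 4 and 4.35, 5.35, 7.98 and 5.34 in mutant cerebellum 1 to 4. Readings of 5.34 or 5.35 were shared by numbers 2 and 4 and also by ret mutants 1 and 4. Whether this is a background level of the probe set was not tested. The means of the 2 regions ranged over 3.61, while the regions of 1 number differed by at most 0.02; in controls the range was 2.20 and the largest difference 0.93. Slc15a2, a peptide carrier, read 4.91, 4.59, 9.38 and 5.82 in mutant cerebrum and 4.96, 4.77, 9.29 and 5.69 in mutant cerebellum, with a range of 4.66 and differences of at most 0.18, beside 1.79 and 0.93 in controls. In both, number 3 was the high one, the mutant pair with high pituitary marker means in both regions (11.73 and 10.88) and unsettled region labels; their part in this pattern was not tested.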
